A study of Arabidopsis thaliana with 8 samples.

Results

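Seedlings of Arabidopsis thaliana Col-0, the wild type of the study, were compared after 4 h of water deficit with seedlings that were not stressed. The plants were grown in long days and at 10 days of age received, for 4 h, liquid Murashige and Skoog medium that held 25% PEG8000 (Dehydration) or the medium alone (Mock). Polyethylene glycol of this size does not enter the cell wall and draws water out of the tissue. Whole seedlings were collected, so each library holds RNA of roots, hypocotyls, cotyledons and leaves together. Of the 8 RNA-seq libraries of the series, the 4 of Col-0 form the comparison described here, with 2 libraries for Dehydration and 2 for Mock. The Col-0 libraries carry no mutation or transgene by their labels. The other 4 are of the double mutant enap1-1enap2 in the same background, made by crossing enap1-1, a deletion made with CRISPR/Cas9, to enap2, which carries T-DNA in the gene's first exon, and it received the same treatments. Libraries of the mutant enter the filter that chose the genes tested, the scaling of the libraries and the estimate of the spread between replicates. They also enter the test of whether a response differed between the genotypes. With the 4 Col-0 libraries alone 20922 genes were tested. The count table holds 36799 genes, and all 21614 genes with enough reads were tested, whatever their response. The genes described below were picked from these by list and by size of change. All lists were chosen with earlier results of these data known, so a count in a list describes its members only.

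Water deficit is known to raise abscisic acid (ABA), the hormone that closes stomata and switches on protective genes. ABA is bound by PYR/PYL receptors, which then hold back clade A protein phosphatases (PP2C), so that SnRK2 kinases become active and phosphorylate ABF-type bZIP factors that bind the ABA-responsive element (ABRE) in promoters. A second route runs through DREB factors and the dehydration-responsive element (DRE). Growth, photosynthesis and much of primary and specialized metabolism are commonly turned down under the same conditions.

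The libraries held 24007691 and 24919659 counts for Dehydration and 34814583 and 48279415 counts for Mock. Levels are given as CPM (counts divided by the library total and scaled to a fixed sum) corrected by TMM factors, and 3 counts, taken as the floor of detection, correspond to 0.0608 to 0.135 CPM in these 4 libraries. Floors cover no more than counting error, and that only in part. Mates of a pair were counted singly, so 3 counts can be fewer than 3 fragments. Genes of the chloroplast and mitochondrial genomes are listed at 0 in all 4 libraries and are not described further. As a description with no test, Pearson's r over genes, on log2(CPM + 1), was 0.9947 between the Dehydration replicates and 0.9920 between the Mock replicates. Of the genes that averaged 1 CPM or more in the pair, 182 differed by at least 2-fold between the Dehydration replicates and 242 between the Mock replicates. The Mock replicates stood apart in seed genes. CRA1, a 12S seed storage protein, had 0.0902 and 0.17 CPM under Dehydration, against 40.2 and 0.365 CPM under Mock, and ICL, the isocitrate lyase of the glyoxylate cycle, had 2.8 and 1.87 CPM under Dehydration, against 223 and 10.3 CPM under Mock. In both genes Mock replicate 1 was far above the other 3 libraries, and without it CRA1 was not called. Many results that rest on one Mock library are given below with and without it, but not all. Counts of called genes in the lists below also moved without Mock replicate 1. Fewer expansins and root hair markers, for instance, and more DNA replication genes were then called as repressed. The labels and methods do not say that replicates came from separate cultures on separate days, so p-values measure the spread between these libraries.

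Dehydration changed 4699 genes, 21.7% of those tested. A gene was called when the unadjusted p was under 0.01, the Benjamini-Hochberg adjusted p under 0.05 and the absolute log2 fold change of Dehydration over Mock above 1, all in edgeR's quasi-likelihood test, which also gives every adjusted p below. Of the called genes 2164 were induced (10.0% of those tested) and 2535 were repressed (11.7%). Counts of called genes in the lists below stand against these shares, and several lists came near them. The libraries of the treatments did not overlap for 2164 of the induced and 2529 of the repressed genes, while 38.4% and 40.5% of all genes tested were without overlap in the same directions. The 6 repressed genes with overlap were AT1G12080, MLS, CASP5, OLEO2, AT5G44440 and PORA, chosen here after their values were seen, and in each of them only Mock replicate 1 was high. Of these, CASP5 and AT5G44440 did not pass the filter when the mutant libraries were left out. Changes of at least 8-fold were estimated for 349 induced and 452 repressed genes, but 35 induced genes were at 0 in both Mock libraries and 98 repressed genes at 0 in both Dehydration libraries, so that no fold is measured for these. The induced genes took 24.3% and 24.5% of all counts in the Dehydration libraries, against 7.50% and 7.42% in the Mock libraries. For the repressed genes the share was 2.84% and 2.79% under Dehydration, against 9.47% and 9.19% under Mock. Without Mock replicate 1 the calls were 2192 induced and 2344 repressed, and without Mock replicate 2 they were 2028 and 2497. The balance of the directions depended on the scaling, since with library size alone 1659 genes were induced and 3286 repressed. That scaling moved the median log2 fold change of all genes tested to -0.21, against -0.03 with TMM.

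**Figure D1:**
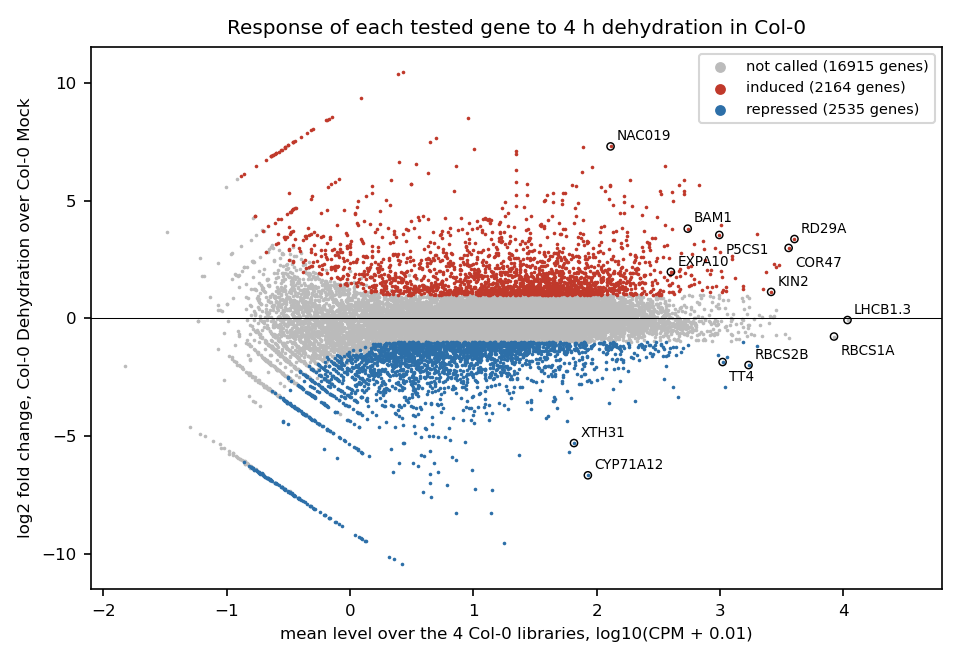
Log2 fold change of Col-0 Dehydration over Col-0 Mock (y axis) against the mean level over the 4 Col-0 libraries (x axis, log10 of CPM + 0.01) for 21614 genes, with induced genes in red, repressed genes in blue and genes not called in grey. RD29A and COR47 lie among the most abundant genes and at log2 fold changes of 3.37 and 2.99. The diagonal lines on the left are genes with 0 or few counts in one treatment, whose fitted fold change depends on the prior count and is no measure of size.

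The largest gains in transcript abundance belonged to protective proteins of the dehydrin and late embryogenesis abundant (LEA) kind, hydrophilic proteins that are known to shield membranes and enzymes when cells lose water. Of the 25 genes of this list, chosen with earlier results of these data known, 22 were induced and none was repressed, and DESeq2 called 20. Their median log2 fold change was 2.84, against -0.03 over all genes tested. Together the 25 genes held 4.03% and 4.13% of all counts under Dehydration, against 0.896% and 1.03% under Mock. RD29A (AT5G52310, chromosome 5), a hydrophilic protein induced by desiccation and cold, had 7171 and 7470 CPM under Dehydration, against 552 and 866 CPM under Mock (log2 fold change 3.37, SE 0.17, adjusted p = 1.28e-10). COR47 (AT1G20440, chromosome 1), an acidic dehydrin, had 6645 and 6143 CPM under Dehydration, against 736 and 873 CPM under Mock (log2 fold change 2.99, SE 0.12, adjusted p = 9.97e-12). In abundance per length, as TPM (counts divided by exon length and scaled to a fixed sum), RD29A had 4100 and 4350 TPM under Dehydration, against 365 and 523 TPM under Mock, and COR47 had 4361 and 4106 TPM under Dehydration, against 559 and 605 TPM under Mock. Of the 10 genes with the largest gain in TPM, 9 were of this kind: besides RD29A and COR47 they were KIN2, ERD10, XERO2, COR15A, KIN1, ERD14 and AT3G02480, the last annotated as a LEA family protein. KIN2 was the most abundant of them with 6859 and 7732 TPM under Dehydration, against 3772 and 3553 TPM under Mock, and its rise was the smallest of the 10 (log2 fold change 1.12, or 0.94 and not called with library size alone). KIN1 and KIN2 are close copies, and reads that fitted both were left out of the counts. The remaining gene was RD22, a BURP domain protein known as a marker of ABA and drought, with 4657 and 4537 CPM under Dehydration, against 699 and 1132 CPM under Mock (log2 fold change 2.33, SE 0.17, adjusted p = 1.03e-08).

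Other LEA genes were low under Mock and rose further. RAB18, the classic ABA-induced dehydrin, had 943 and 1036 CPM under Dehydration, against 24 and 27.3 CPM under Mock (log2 fold change 5.27, SE 0.15, adjusted p = 2.71e-13). LEA4-5, a group 4 LEA protein, had 854 and 965 CPM under Dehydration, against 25.3 and 11.2 CPM under Mock, LEA7 had 759 and 837 CPM under Dehydration, against 30.5 and 9.28 CPM under Mock, and RD29B had 937 and 1049 CPM under Dehydration, against 43.2 and 4.82 CPM under Mock. All 4 genes were far apart between the treatments, but the last 3 were higher in Mock replicate 1 than in Mock replicate 2. The log2 fold change of RD29B was 5.39 with both Mock libraries (adjusted p = 1.19e-06), 7.68 without Mock replicate 1 and 4.51 without Mock replicate 2. Without Mock replicate 1 that of LEA7 was 6.42, against 5.34 with both, and that of LEA4-5 was 6.34, against 5.65 with both. The genes of this list that were not called were EM6, XERO1 and HIRD11, a dehydrin that had 2097 and 2287 CPM under Dehydration, against 1788 and 2183 CPM under Mock.

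The 250 bases before the annotated start of RD29A and of COR47 are shown because these genes had the largest gains in CPM of the list and differ in the motifs found there. Capitals mark the motifs searched, and both stretches are of the TAIR10.1 assembly from RefSeq, written 5′ to 3′ on the strand of the gene.
RD29A, chr5:21240467-21240716, plus strand: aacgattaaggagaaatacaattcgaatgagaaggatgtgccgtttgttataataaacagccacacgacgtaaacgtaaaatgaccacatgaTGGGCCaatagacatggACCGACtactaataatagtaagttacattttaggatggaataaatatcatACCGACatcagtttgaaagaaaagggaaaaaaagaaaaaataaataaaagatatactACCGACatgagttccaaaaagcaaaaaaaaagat
COR47, chr1:7086874-7087123, minus strand: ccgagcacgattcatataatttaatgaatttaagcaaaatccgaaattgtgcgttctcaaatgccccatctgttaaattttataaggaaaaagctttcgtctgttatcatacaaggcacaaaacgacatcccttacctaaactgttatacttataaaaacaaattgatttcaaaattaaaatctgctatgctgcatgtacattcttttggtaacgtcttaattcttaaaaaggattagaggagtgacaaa
RD29A carries the DRE core ACCGAC 3 times on its own strand, with the first base 141, 91 and 34 bases before the start, and the site II letters TGGGCC beginning 158 bases before the start. In the stretch of COR47 none of the motifs searched was found. The stretches shown leave out the 50 bases after the start that the motif shares given below also cover.

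**Figure D2:**
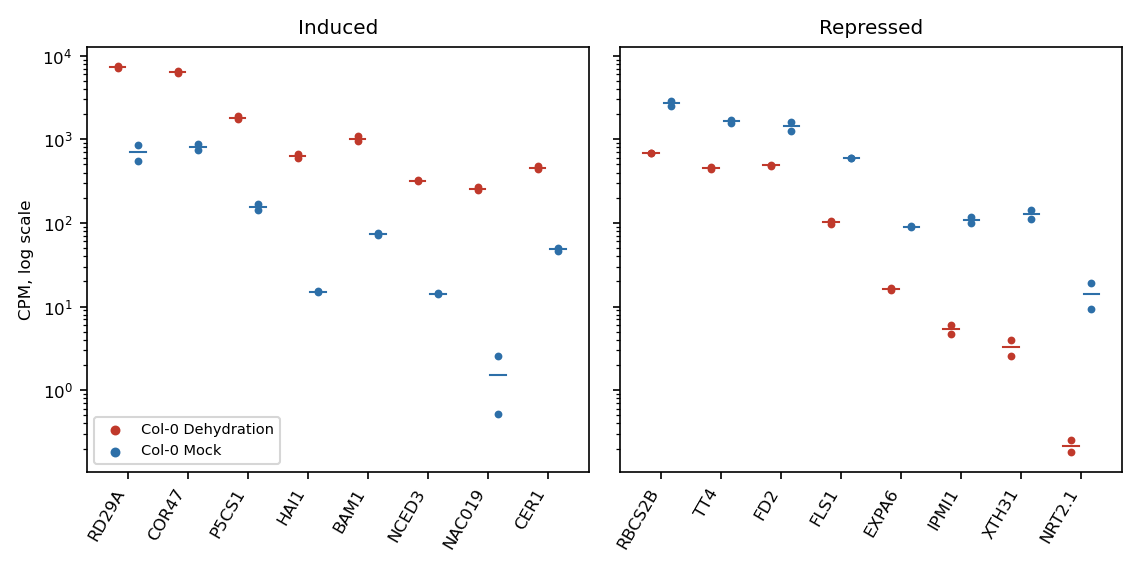
CPM on a log scale for 8 induced and 8 repressed genes, with 1 point for each Col-0 library, Dehydration in red left of Mock in blue, and a bar at the mean of the 2 libraries. In none of the 16 genes do the treatments overlap, and NAC019 and NRT2.1 show the widest spread between Mock replicates.

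Among the 9 genes of ABA synthesis tested 4 were induced and none was repressed (median log2 fold change 1.01). NCED3, the 9-cis-epoxycarotenoid dioxygenase that makes the committed step in ABA synthesis, had 322 and 313 CPM under Dehydration, against 14 and 14.5 CPM under Mock (log2 fold change 4.48, SE 0.10, adjusted p = 4.93e-14). ABA1 (zeaxanthin epoxidase), AAO3 (abscisic aldehyde oxidase) and ABA3 (molybdenum cofactor sulfurase) had log2 fold changes of 2.09, 1.75 and 1.19, and with library size alone ABA3 was not called. Of the 5 genes of ABA breakdown 3 were induced. They were the ABA 8'-hydroxylases CYP707A3, CYP707A2 and CYP707A1, at log2 fold changes of 3.48, 1.37 and 1.21, and the last of these was under the fold threshold without Mock replicate 2 (0.98).

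Every one of the 9 clade A PP2C genes tested was induced by edgeR, with a median log2 fold change of 3.41, and DESeq2 called 8 of them. HAI1, also known as SAG113, had 595 and 676 CPM under Dehydration, against 15.3 and 14.9 CPM under Mock (log2 fold change 5.4, SE 0.10, adjusted p = 4.43e-14). HAI2 had 230.2 and 262 CPM under Dehydration, against 7.05 and 7.44 CPM under Mock, and HAI3 had 42.8 and 43.2 CPM under Dehydration, against 2.14 and 0.324 CPM under Mock. The log2 fold change of HAI3 was 5.23, with 7.03 without Mock replicate 1 and 4.32 without Mock replicate 2. The most abundant gene of the family was ABI1, which had 1086 and 1141 CPM under Dehydration, against 119.6 and 127 CPM under Mock (log2 fold change 3.18, SE 0.09, adjusted p = 4.66e-13). The receptors did not move together. Of 11 receptor genes tested 2 were induced and 2 repressed, and the median was -0.58. PYL7 and PYL9 rose (log2 fold changes 2.28 and 1.11), while PYL4, with 6.95 and 6.58 CPM under Dehydration, against 36.1 and 41.3 CPM under Mock, and PYL1 fell (log2 fold changes -2.52 and -1.36). PYL7 shares 49.7% of its exonic bases with other annotated genes, whose reads could not be told apart, and PYL9 missed the fold threshold with library size alone (0.93) and without Dehydration replicate 2 (0.9).

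Of 34 genes of stress transcription factors 31 were induced and none was repressed, with a median of 2.82. The list was chosen with earlier results of these data known, so this share is no test of such factors as a class. NAC019, a NAC factor of the drought response, had 248 and 266 CPM under Dehydration, against 0.522 and 2.55 CPM under Mock (log2 fold change 7.3, SE 0.30, adjusted p = 1.57e-11), which was 6.65 without Mock replicate 1 and 8.93 without Mock replicate 2. HSFA6B, a heat shock factor that acts downstream of ABA, had 365 and 382 CPM under Dehydration, against 14.1 and 13.2 CPM under Mock. The homeobox genes HB12 and HB7 were induced at log2 fold changes of 4.47 and 3.98, and HB7 was the most abundant gene of the list with 666 and 691 CPM under Dehydration, against 41.4 and 44.3 CPM under Mock. The ABRE-binding factors ABF2, ABF3 and ABF4 and the related ABI5 had log2 fold changes of 2.31, 2.41, 1.57 and 2.81, while ABF1 was not called (0.70). DREB2A, the main DREB factor of dehydration, had 234 and 269 CPM under Dehydration, against 24.7 and 25.7 CPM under Mock (log2 fold change 3.32, SE 0.10, adjusted p = 4.60e-13). Among the CBF factors, best known from cold, CBF1, CBF3 and CBF4 were induced and CBF2 was not called (0.55). CBF4 had 7.98 and 11.8 CPM under Dehydration, against 0.104 and 0 CPM under Mock, with 4 and 0 counts under Mock, so no fold is given. MYB44, a MYB factor of stomatal closure, was already high under Mock and was induced, with 182 and 191 CPM under Dehydration, against 56.9 and 64 CPM under Mock (log2 fold change 1.62, SE 0.09, adjusted p = 3.96e-10), and 48.4% of its exonic bases are shared with another annotated gene.

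Genes of compatible solutes, the small molecules that hold water in cells, rose in part. Of 28 genes tested 15 (53.6%) were induced and 4 (14.3%) repressed (median 1.31), against 10.0% and 11.7% of all genes tested. P5CS1, the rate-limiting enzyme of proline synthesis, had 1751 and 1882 CPM under Dehydration, against 144 and 168 CPM under Mock (log2 fold change 3.54, SE 0.11, adjusted p = 7.0e-13). GolS2, a galactinol synthase of raffinose synthesis, had 125 and 142 CPM under Dehydration, against 3.5 and 2.03 CPM under Mock (log2 fold change 5.62, SE 0.16, adjusted p = 3.66e-13). ERD5, the proline dehydrogenase that starts proline breakdown, moved the other way with 44.3 and 52.9 CPM under Dehydration, against 91 and 119 CPM under Mock (log2 fold change -1.11, SE 0.12, adjusted p = 9.38e-07), although it was not called without Mock replicate 2 (-0.91) or without Dehydration replicate 1 (-0.99). The trehalose genes were divided. TPS11 and the phosphatases TPPJ and TPPF had log2 fold changes of 3.26, 2.72 and 2.29, while the phosphatases TPPB, TPPH and TPPA fell, at -2.87, -2.64 and -1.03. TPPB was at -3.52 without Dehydration replicate 2, and TPPA was not called without Dehydration replicate 1 (-0.87).

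Starch degradation genes were mostly not called, since 4 of 23 were induced and 1 was repressed (median 0.21). The beta-amylases took opposite directions. BAM1, which degrades starch in guard cells and under osmotic stress, had 954 and 1089 CPM under Dehydration, against 70.8 and 75 CPM under Mock (log2 fold change 3.81, SE 0.10, adjusted p = 2.01e-13), while BAM3, the main beta-amylase of leaves at night, had 161 and 132 CPM under Dehydration, against 363 and 479 CPM under Mock (log2 fold change -1.52, SE 0.13, adjusted p = 4.89e-08). BAM3 shares 25.2% of its exonic bases with other genes. BAM4 and BAM5 were induced too (log2 fold changes 1.86 and 2.61).

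Of 17 markers of energy starvation 6 were induced and none was repressed (median 0.68), among them DIN11, with 47.5 and 51.4 CPM under Dehydration, against 8.22 and 5.55 CPM under Mock, and EXL2 (log2 fold change 1.85). All 27 autophagy genes tested had positive values, 9 of them passed the test and none was repressed (median 0.81). ATG18F, ATG8H and ATG18H changed most, at log2 fold changes of 1.98, 1.97 and 1.73. In the list of chlorophyll breakdown and senescence 8 of 14 genes were induced (median 1.35). PAO, the pheophorbide a oxygenase of chlorophyll breakdown, had 258 and 237 CPM under Dehydration, against 55.3 and 68.3 CPM under Mock (log2 fold change 2.0, SE 0.10, adjusted p = 1.27e-10), and SAG29, a SWEET sugar transporter, had 47 and 58 CPM under Dehydration, against 1.51 and 1.3 CPM under Mock. NYC1, a chlorophyll b reductase and among the most abundant of this list, was not called (log2 fold change -0.51).

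Of 41 wax and suberin genes tested 15 (36.6%) were induced and 5 (12.2%) repressed (median 0.81), against 10.0% and 11.7% of all genes tested. CER1, which makes the alkanes of cuticular wax, had 443 and 475 CPM under Dehydration, against 50.2 and 46.1 CPM under Mock (log2 fold change 3.25, SE 0.09, adjusted p = 3.38e-13). WSD1, a wax ester synthase, had 36.5 and 35.6 CPM under Dehydration, against 1.57 and 3.08 CPM under Mock, and both genes were far apart between the treatments. The genes that fell included FAR4 and FAR5, reductases that make the fatty alcohols of suberin, with 2.71 and 1.7 CPM under Dehydration, against 20.6 and 19.5 CPM under Mock for FAR4 (log2 fold change -3.19, SE 0.19, adjusted p = 8.95e-10). FAR5, at -1.03, was not called without Mock replicate 1 (-0.91) or without Dehydration replicate 2 (-0.94). Of 20 aquaporins 10 were induced and 3 repressed (median 1.06), and without Mock replicate 2 the repressed were 6. PIP1;4 had 1386 and 1196 CPM under Dehydration, against 207 and 258 CPM under Mock (log2 fold change 2.48, SE 0.12, adjusted p = 1.48e-10) and PIP2;1 had 1341 and 1378 CPM under Dehydration, against 317 and 329 CPM under Mock (log2 fold change 2.07, SE 0.09, adjusted p = 3.86e-11). TIP1;1, a tonoplast channel, had 1567 and 1652 CPM under Dehydration, against 432 and 522 CPM under Mock (log2 fold change 1.75, SE 0.10, adjusted p = 8.74e-10). TIP4;1, PIP2;4 and PIP2;8 fell, at log2 fold changes of -2.38, -1.87 and -1.05, and the first of them had 5.95 and 2.97 CPM under Dehydration, against 27.5 and 18.8 CPM under Mock. Without Mock replicate 1 PIP2;4 was at -0.97 and not called. Close copies such as PIP2;2 and PIP2;3 share sequence, and reads that fitted several genes were not counted.

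Of 16 heat shock protein genes 10 were induced and none was repressed (median 1.98). HSP70B had 75.9 and 69.6 CPM under Dehydration, against 7.15 and 6.2 CPM under Mock (log2 fold change 3.45, SE 0.12, adjusted p = 2.17e-12), and the small heat shock proteins HSP17.6II and HSP22.0 had log2 fold changes of 4.24 and 3.53. HSP21 was at 0 in both Mock libraries and at least 8.70-fold higher under Dehydration, taking 3 counts in each Mock library as the floor. A floor of 3 fragments would give a lower bound. It did not pass the filter with the 4 Col-0 libraries alone, where 9 genes of this list were induced. HSC70-1, which held 60.1% of the list's counts, had 2839 and 2617 CPM under Dehydration, against 2457 and 2762 CPM under Mock (log2 fold change 0.06, adjusted p = 0.616), and its direction turned to -0.12 with library size alone.

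Jasmonate genes were induced in 15 of 27 cases and repressed in none (median 1.13). Among them were the JAZ repressors JAZ1, JAZ5 and JAZ10, and JAZ1 had 231 and 240.5 CPM under Dehydration, against 46.5 and 39.7 CPM under Mock (log2 fold change 2.45, SE 0.11, adjusted p = 3.13e-11). LOX2, the chloroplast lipoxygenase that held 44.0% of this list's counts, had 3159 and 2087 CPM under Dehydration, against 2478 and 2433 CPM under Mock and was not called (log2 fold change 0.10, adjusted p = 0.639). MYC2, the central factor of this pathway, is listed at 0 in every library, and 98.5% of its exonic bases are shared with another annotated gene, and reads on several genes were left out. In all 11 members of the lists were in this position, each with at least 90% of its exonic bases shared, and none of these was tested. Of 27 ethylene genes 6 were induced and 2 repressed (median 0.26). ACS2, an ACC synthase, had 21.5 and 24.3 CPM under Dehydration, against 1.83 and 2.03 CPM under Mock (log2 fold change 3.56, SE 0.15, adjusted p = 2.08e-11), and ACO1, an ACC oxidase, had 2.93 and 2.97 CPM under Dehydration, against 8.04 and 8.03 CPM under Mock (log2 fold change -1.44, SE 0.19, adjusted p = 1.05e-05).

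**Figure D3:**
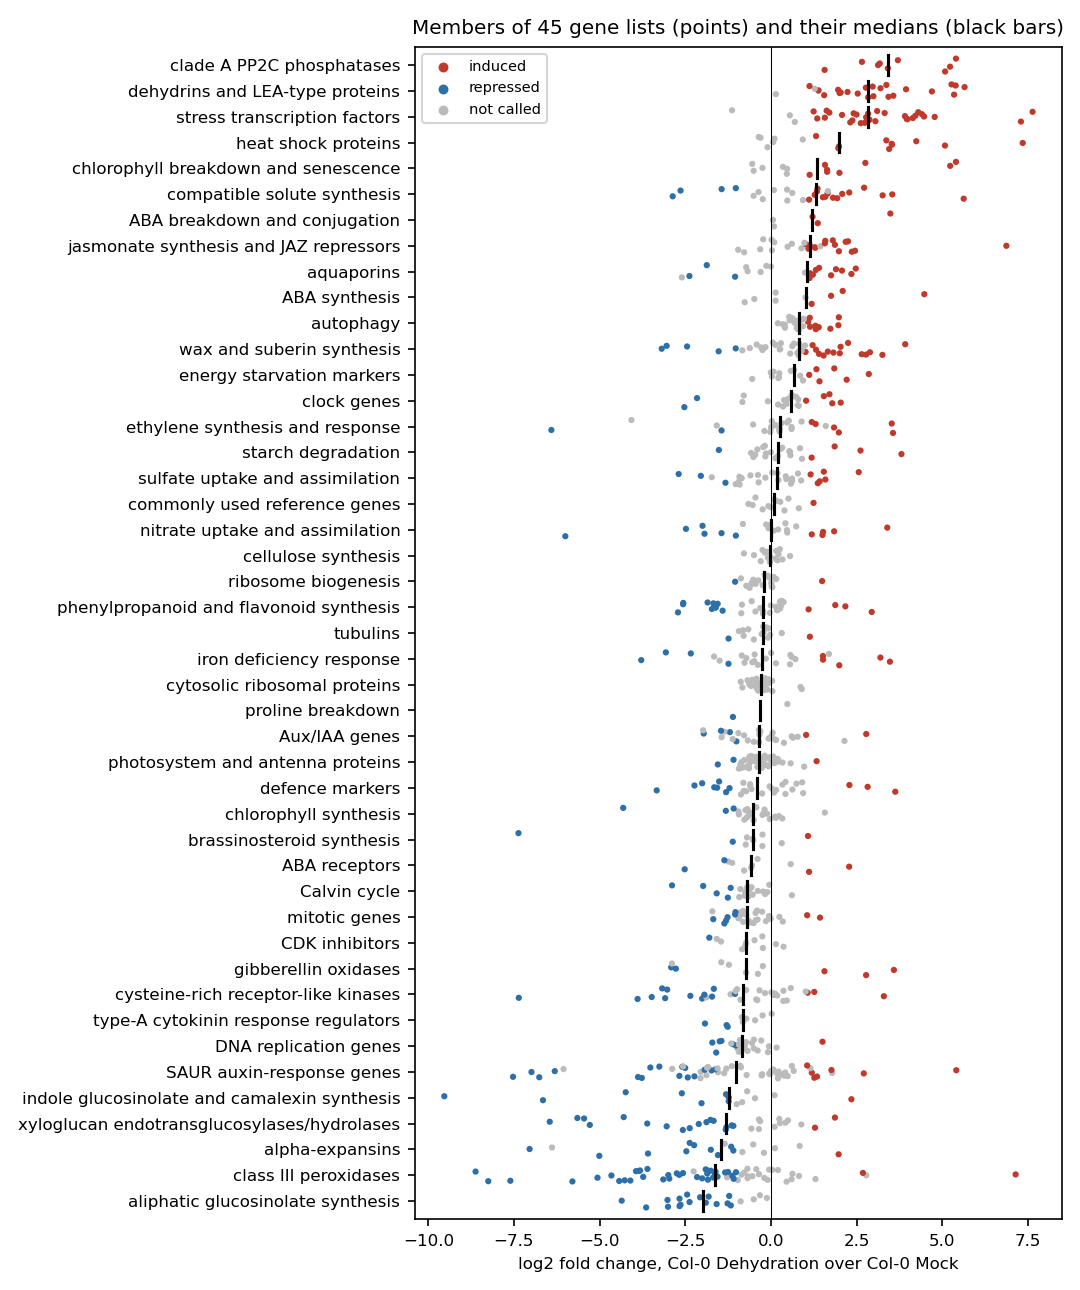
Log2 fold change of Col-0 Dehydration over Col-0 Mock for the tested members of 45 gene lists, 1 row for each list, ordered by the median (black bar), with induced genes in red, repressed genes in blue and genes not called in grey. The clade A PP2C phosphatases are at the top with a median of 3.41, and the aliphatic glucosinolate genes are at the bottom with a median of -1.98.

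Most photosynthesis genes had negative values, and most were not called. Of 22 Calvin cycle genes 5 (22.7%, against 11.7% of all genes tested) were repressed and none was induced, and 21 had negative values (median -0.69). RBCS1B, a small subunit of Rubisco, had 270.2 and 251 CPM under Dehydration, against 1726 and 2133 CPM under Mock. RBCS2B, another copy, had 694 and 685 CPM under Dehydration, against 2526 and 2907 CPM under Mock. Both were called. RBCS1A, the most abundant of the family, had 6337 and 6088 CPM under Dehydration, against 9694 and 11469 CPM under Mock and was not called (log2 fold change -0.77, adjusted p = 3.28e-05). These copies are nearly identical and only reads that fitted a single one were counted. FBA1, a chloroplast aldolase, had 189 and 179 CPM under Dehydration, against 485 and 618 CPM under Mock (log2 fold change -1.58, SE 0.11, adjusted p = 7.73e-09). Of 48 photosystem and antenna genes 2 were repressed and 1 was induced (median -0.35). FD2, the leaf ferredoxin, had 498 and 475 CPM under Dehydration, against 1255 and 1597 CPM under Mock (log2 fold change -1.55, SE 0.14, adjusted p = 9.92e-08), while LHCB1.4 had 1028 and 1196 CPM under Dehydration, against 442 and 441 CPM under Mock (log2 fold change 1.33, SE 0.13, adjusted p = 3.72e-07). With library size alone 8 genes of this list were repressed. LHCB1.3, the most abundant gene of the list and called under neither scaling, had 10660 and 10445 CPM under Dehydration, against 9959 and 12159 CPM under Mock (log2 fold change -0.07, adjusted p = 0.650). Of 23 genes of chlorophyll synthesis 3 were repressed (median -0.51), among them PORB, with 212 and 189.6 CPM under Dehydration, against 504 and 496 CPM under Mock (log2 fold change -1.32, SE 0.09, adjusted p = 5.13e-09). PORA had 1.44 and 1.1 CPM under Dehydration, against 50.5 and 0.527 CPM under Mock, so its call rests on Mock replicate 1, without which the log2 fold change was 1.26 and not called. CA1, the chloroplast carbonic anhydrase, had 1005 and 1036 CPM under Dehydration, against 1961 and 2142 CPM under Mock (log2 fold change -1.01, SE 0.10, adjusted p = 2.12e-07) and was one of the 10 largest losses in TPM, but it was under the fold threshold without Mock replicate 2 (-0.95) and without Dehydration replicate 1 (-0.99).

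Genes for expansins and for enzymes that rebuild xyloglucan in the cell wall were repressed in most cases in the main fit, but not with a stricter test. Of 18 alpha-expansins tested, proteins that let walls extend, 10 were repressed and 1 was induced (median -1.45). With glmTreat, which tests against the fold threshold, 7 were repressed. EXPA6 had 16.6 and 15.8 CPM under Dehydration, against 88.7 and 90.9 CPM under Mock (log2 fold change -2.47, SE 0.10, adjusted p = 7.29e-12), EXPA7 had 0.271 and 0.424 CPM under Dehydration, against 12.8 and 9.95 CPM under Mock and EXPA8 had 0.18 and 0 CPM under Dehydration, against 18 and 6.2 CPM under Mock. The induced gene was EXPA10, which held 43.3% of the list's counts and had 652 and 621 CPM under Dehydration, against 138 and 186 CPM under Mock (log2 fold change 1.98, SE 0.13, adjusted p = 3.89e-09). With this gene included, the summed level of the expansins was 1018 and 1027 CPM under Dehydration, against 803 and 839 CPM under Mock. Of 29 xyloglucan endotransglucosylase/hydrolase (XTH) genes tested 17 were repressed and 2 induced (median -1.3), and without Mock replicate 1 fewer were repressed and more induced. With glmTreat 11 were repressed. XTH31 had 3.97 and 2.59 CPM under Dehydration, against 113 and 142 CPM under Mock (log2 fold change -5.29, SE 0.16, adjusted p = 5.96e-13) and XTH6 had 0.902 and 0.679 CPM under Dehydration, against 14.8 and 16.3 CPM under Mock (log2 fold change -4.3, SE 0.21, adjusted p = 1.11e-10). XTH15 had 1.04 and 0.594 CPM under Dehydration, against 17.2 and 2.84 CPM under Mock, and its log2 fold change was -3.61 with both Mock libraries and -1.8 without Mock replicate 1. XTH22, known for its response to touch, rose (log2 fold change 1.87, SE 0.10, adjusted p = 4.64e-10). None of the 16 genes of cellulose synthesis was called in either direction by edgeR or DESeq2, with values between -0.79 and 0.56, a median of -0.02, and 3 higher and 3 lower at an unadjusted p under 0.05. Among the tubulins 1 of 15 genes was induced and 1 repressed (median -0.23).

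XTH31 is shown for the same reason among the repressed growth genes, and the 250 bases before its start hold the site II letters on the opposite strand, beginning 18 bases before the start.
XTH31, chr3:16448845-16449094, minus strand: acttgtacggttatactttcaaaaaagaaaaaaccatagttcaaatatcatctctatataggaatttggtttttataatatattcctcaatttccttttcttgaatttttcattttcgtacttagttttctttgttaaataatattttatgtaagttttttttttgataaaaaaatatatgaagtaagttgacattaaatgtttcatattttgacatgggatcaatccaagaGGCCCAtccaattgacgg
In the same stretch before EXPA10, FD2 and HB7, named by the same rule, none of the motifs searched was found.

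Most cell cycle genes had negative values, and most were not called. Of 32 DNA replication genes 6 (18.8%) were repressed and 1 was induced, and 30 had negative values (median -0.85). Over all genes tested 11.7% were repressed. PCNA1, the sliding clamp of DNA polymerase, had 9.56 and 8.15 CPM under Dehydration, against 25.9 and 27.7 CPM under Mock (log2 fold change -1.6, SE 0.12, adjusted p = 1.28e-08), and MCM6, a subunit of the replicative helicase, had 8.07 and 5.94 CPM under Dehydration, against 20.3 and 19.2 CPM under Mock (log2 fold change -1.5, SE 0.14, adjusted p = 1.98e-07). E2FB, a factor of cell cycle entry, went up with 17.2 and 19.9 CPM under Dehydration, against 6.5 and 6.57 CPM under Mock (log2 fold change 1.5, SE 0.14, adjusted p = 2.63e-07). Of 34 mitotic genes 6 were repressed and 2 induced (median -0.70), with CYCA1;1 at 6.31 and 5.6 CPM under Dehydration, against 14 and 15.6 CPM under Mock (log2 fold change -1.31, SE 0.15, adjusted p = 1.33e-06). With library size alone 16 replication genes and 14 mitotic genes were repressed. Among 11 CDK inhibitors SIM alone was called, and it was repressed (log2 fold change -1.8, 31.4% of exonic bases shared). Cytosolic ribosomal proteins had a median of -0.29. This list was made by a pattern in gene names that found 27 genes, and it need not stand for the whole family. Neither edgeR nor DESeq2 called any of 26, though 16 were lower and 2 higher at an unadjusted p under 0.05. Of 20 ribosome biogenesis genes 1 was induced and 1 repressed (median -0.21).

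Of 58 small auxin up RNA (SAUR) genes tested 16 were repressed and 7 induced (median -1.02, or -0.94 with genes at 0 in both Dehydration libraries set to the floor). Many of them were low, and among those with at least 1 CPM in 2 libraries the median was 0.01. Without Dehydration replicate 1, and likewise without Dehydration replicate 2, 10 were repressed. AT4G38840 had 3.25 and 2.72 CPM under Dehydration, against 14.3 and 19.4 CPM under Mock (log2 fold change -2.5, SE 0.20, adjusted p = 3.71e-08), while AT4G12410 had 13.4 and 13.9 CPM under Dehydration, against 0.261 and 0.365 CPM under Mock (log2 fold change 5.41, SE 0.23, adjusted p = 2.55e-11). Of 29 Aux/IAA genes 4 were repressed and 2 induced (median -0.34). These are 13.8% and 6.9%, near the 11.7% and 10.0% of all genes tested. IAA14 was at 4.33 and 2.25 CPM under Dehydration, against 12.8 and 12.8 CPM under Mock, and IAA30 was at 10 and 13.1 CPM under Dehydration, against 1.57 and 1.78 CPM under Mock. In gibberellin metabolism GA3OX2, which makes active gibberellin, had 2.57 and 2.42 CPM under Dehydration, against 19.9 and 17.7 CPM under Mock (log2 fold change -2.91, SE 0.17, adjusted p = 6.46e-10), and GA2OX6, which inactivates it, had 71.8 and 85.8 CPM under Dehydration, against 12.1 and 10.9 CPM under Mock (log2 fold change 2.78, SE 0.11, adjusted p = 1.16e-11). Of 11 genes of this list 3 were induced and 2 repressed, with 1 induced without Mock replicate 2. Among 9 type-A cytokinin response regulators 3 were repressed and none was induced (median -0.82), and ARR4 had 35.5 and 27.3 CPM under Dehydration, against 74.9 and 75.6 CPM under Mock (log2 fold change -1.26, SE 0.11, adjusted p = 7.26e-08). Of 10 brassinosteroid synthesis genes 2 were repressed and 1 was induced (median -0.53), and DWF1, with 55.0% of the counts, was not called (log2 fold change -0.52).

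Aliphatic glucosinolate synthesis, which makes the methionine-derived defence compounds of the cabbage family, had the lowest median (-1.98) of the 45 lists, leaving aside the cell type markers. Of 20 genes tested 16 were repressed, none was induced and all had negative values. IPMI1, of the chain elongation step, had 4.69 and 5.94 CPM under Dehydration, against 99.7 and 119 CPM under Mock (log2 fold change -4.36, SE 0.13, adjusted p = 5.17e-13), and CYP79F2, a cytochrome P450 of the core pathway, had 1.89 and 1.78 CPM under Dehydration, against 22.8 and 23.2 CPM under Mock. BAT5, a transporter of the pathway's 2-oxo acids, had 6.95 and 8.15 CPM under Dehydration, against 58.6 and 64 CPM under Mock. MYB28 and MYB29, the factors that control the pathway, fell as well (log2 fold change -2.45, SE 0.10, adjusted p = 1.74e-11 and log2 fold change -2.07, SE 0.14, adjusted p = 5.38e-09). Genes of indole glucosinolates and camalexin were repressed in 8 of 14 cases and induced in 1 (median -1.23). CYP71A12 had 1.8 and 1.53 CPM under Dehydration, against 158 and 177 CPM under Mock (log2 fold change -6.65, SE 0.20, adjusted p = 4.90e-13) and CYP81F2 had 3.79 and 3.99 CPM under Dehydration, against 74 and 73.2 CPM under Mock (log2 fold change -4.24, SE 0.12, adjusted p = 2.90e-13). CYP71A13, a near copy of CYP71A12, was the induced one (log2 fold change 2.35), with an adjusted p of 0.0517 without Mock replicate 1, of 0.287 without Dehydration replicate 2, and with 22.1% of its exonic bases shared. CYP82C2 had 0 and 0.0849 CPM under Dehydration, against 37 and 33.4 CPM under Mock, with 0 and 2 counts under Dehydration.

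Phenylpropanoid and flavonoid genes were split. Of 31 tested 10 were repressed and 4 induced (median -0.23). TT4, the chalcone synthase at the start of the flavonoid branch, had 472 and 440 CPM under Dehydration, against 1571 and 1714 CPM under Mock (log2 fold change -1.85, SE 0.10, adjusted p = 4.06e-10) and was among the 10 largest losses in TPM. FLS1, the main flavonol synthase, had 98.3 and 104 CPM under Dehydration, against 595 and 598 CPM under Mock (log2 fold change -2.56, SE 0.09, adjusted p = 1.35e-12), and 4CL3 had 24.5 and 23.2 CPM under Dehydration, against 151 and 162 CPM under Mock (log2 fold change -2.71, SE 0.09, adjusted p = 8.64e-13). PAP2, a MYB factor of anthocyanin synthesis, rose instead, with 22.8 and 23.9 CPM under Dehydration, against 2.71 and 3.32 CPM under Mock (log2 fold change 2.94, SE 0.17, adjusted p = 8.28e-10). F3H could not be tested, with 93.8% of its exonic bases shared with another gene.

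Nutrient genes showed no common direction. Of 22 nitrate and ammonium genes tested 5 were induced and 6 repressed (median 0.01, or -0.17 with library size alone). NRT2.1, the main high-affinity nitrate transporter of roots, had 0.18 and 0.255 CPM under Dehydration, against 9.24 and 19.1 CPM under Mock (log2 fold change -6.0, SE 0.43, adjusted p = 1.04e-08), and the ammonium transporter AMT1;3 had 4.24 and 3.82 CPM under Dehydration, against 21.2 and 23.7 CPM under Mock (log2 fold change -2.48, SE 0.13, adjusted p = 2.67e-10). NRT1.8, which unloads nitrate from the xylem, and the nitrate reductases NIA1 and NIA2 rose, and NIA1 had 1007 and 820.4 CPM under Dehydration, against 228 and 280.3 CPM under Mock (log2 fold change 1.84, SE 0.12, adjusted p = 2.31e-09). NIA2 was not called without Dehydration replicate 1 (0.97). The log2 fold change of NRT2.1 was -5.38 without Mock replicate 2. Of 29 sulfate genes 6 were induced and 3 repressed (median 0.19), with 5 repressed without Mock replicate 1 and 8 with library size alone. The list was led by SDI1, a marker of sulfur shortage, with 42.2 and 32.8 CPM under Dehydration, against 7.62 and 5.19 CPM under Mock (log2 fold change 2.56, SE 0.15, adjusted p = 1.14e-09). Of 26 iron genes 5 were induced and 4 repressed (median -0.27), and without Mock replicate 1 the induced were 3. IRT1, the iron transporter of the root surface, had 9.47 and 11.1 CPM under Dehydration, against 3.24 and 3.93 CPM under Mock (log2 fold change 1.52, SE 0.23, adjusted p = 3.63e-05), and F6H1, needed for coumarin secretion, had 5.86 and 6.96 CPM under Dehydration, against 88.5 and 88.8 CPM under Mock (log2 fold change -3.79, SE 0.11, adjusted p = 4.99e-13).

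Class III peroxidases, secreted enzymes that cross-link or loosen walls with hydrogen peroxide, held the largest number of repressed genes of any list. Of 60 tested 36 were repressed and 2 induced (median -1.62). PER4 had 0.902 and 0.764 CPM under Dehydration, against 52.5 and 40.3 CPM under Mock (log2 fold change -5.79, SE 0.19, adjusted p = 1.22e-12), and AT1G30870 had 0.541 and 1.23 CPM under Dehydration, against 22.4 and 16.3 CPM under Mock (log2 fold change -4.43, SE 0.27, adjusted p = 1.69e-09, and -5.15 without Dehydration replicate 2). AT5G64120 was abundant under Mock and had 21 and 17.1 CPM under Dehydration, against 217 and 246 CPM under Mock (log2 fold change -3.6, SE 0.11, adjusted p = 5.17e-13). PRXR1, which held 51.8% of the list's counts, had 1252 and 1457 CPM under Dehydration, against 1558 and 1893 CPM under Mock and was not called (log2 fold change -0.35). PRX52 was induced (log2 fold change 2.68, SE 0.32, adjusted p = 2.74e-06).

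Defence genes were mostly lower where they were called. Of 30 markers tested 8 were repressed and 3 induced (median -0.41). NHL10, a marker of the immune response to flagellin, had 1.35 and 2.12 CPM under Dehydration, against 21.9 and 13.5 CPM under Mock. WRKY29, another such marker, had 2.07 and 2.29 CPM under Dehydration, against 11.8 and 8.84 CPM under Mock. CBP60G, a factor of salicylic acid synthesis, had 6.58 and 6.2 CPM under Dehydration, against 31.2 and 20.3 CPM under Mock (log2 fold change -2.01, SE 0.20, adjusted p = 4.37e-07). WRKY40, in contrast, had 30.5 and 30.7 CPM under Dehydration, against 2.01 and 2.88 CPM under Mock (log2 fold change 3.63, SE 0.20, adjusted p = 5.32e-10). Of 34 cysteine-rich receptor-like kinases 12 were repressed and 3 induced (median -0.81). CRK40 fell (log2 fold change -2.01, SE 0.14, adjusted p = 8.75e-09) and CRK45 had 34 and 28.1 CPM under Dehydration, against 2.92 and 3.36 CPM under Mock (log2 fold change 3.29, SE 0.15, adjusted p = 6.96e-11).

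All 13 root hair markers, chosen with earlier results of these data known, were repressed, with a median of -3.84. DESeq2 called 12 of them, and glmTreat, which tests against the fold threshold, called 10. Their summed level was 8.21 and 8.19 CPM under Dehydration, against 96.6 and 71.1 CPM under Mock. COBL9, a GPI-anchored protein of growing hairs, had 0.361 and 0.34 CPM under Dehydration, against 7.05 and 5.59 CPM under Mock (log2 fold change -4.16, SE 0.32, adjusted p = 2.04e-08). RSL4, the bHLH factor that sets hair length, and RHS18, a peroxidase of root hairs, were at 0 in both Dehydration libraries. With 3 counts in each Dehydration library as the floor, they were at least 19.8-fold and 34.2-fold lower there. A floor of 3 fragments would give lower bounds. EXPA7 and EXPA18 of the expansin list are also in this list. Of 8 endodermis markers 6 were repressed, with a summed level of 33.0 and 28.5 CPM under Dehydration, against 102 and 70.4 CPM under Mock. Among the 6 was CASP5, which was high in Mock replicate 1 alone. CASP1, of the Casparian strip, had 6.18 and 6.33 CPM under Dehydration, against 31.7 and 18 CPM under Mock (log2 fold change -1.99, SE 0.22, adjusted p = 1.1e-06), while SCR, which defines the layer, was not called (log2 fold change -0.76). In whole seedlings fewer cells of a type and less RNA per cell cannot be told apart. Xylem markers were called in 0 of 9 cases by edgeR and by DESeq2, with 1 lower at an unadjusted p under 0.05 and summed levels of 154 and 174 CPM under Dehydration, against 193 and 151 CPM under Mock. Of 7 phloem markers SUC2, the sucrose loader of companion cells, was induced (log2 fold change 1.51, SE 0.09, adjusted p = 1.08e-09). Root meristem markers were repressed in 3 of 9 cases and induced in 1 (5 and 0 with library size alone), with the induced call also lost without Mock replicate 1. Shoot meristem markers were repressed in 3 of 8 cases, or 2 with DESeq2, 2 with the 4 Col-0 libraries alone and 4 with library size alone. Stomatal lineage markers were repressed in 3 of 9. Among 8 guard cell markers SLAC1, the anion channel of stomatal closure, was induced (log2 fold change 1.14, or 0.98 without Mock replicate 1, with 43.0% of its exonic bases shared), and MYB60 and EPF1 were repressed (-1.65 and -1.01). SLAC1 was not called with library size alone either (0.97), and EPF1 was not called without Mock replicate 1 (-0.89) or without either single Dehydration library. The seed storage and oil body markers summed to 4.33 and 3.74 CPM under Dehydration, against 52.1 and 3.59 CPM under Mock, so that Mock replicate 1 alone was high. Their part in the other results was not tested.

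**Figure D4:**
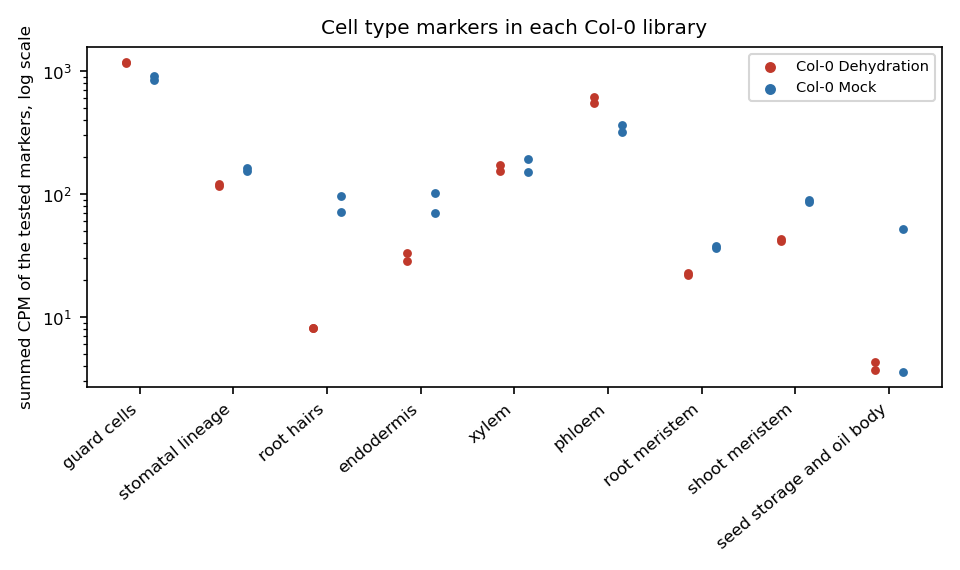
Summed CPM on a log scale of the tested markers of 9 cell types in each Col-0 library, with Dehydration in red left of Mock in blue. Root hair markers are at 8.21 and 8.19 CPM under Dehydration, against 96.6 and 71.1 CPM under Mock, and seed markers are high only in Mock replicate 1, at 52.1 CPM.

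Of 21 clock genes 5 were induced and 2 repressed (median 0.59). LNK1, a coactivator of evening genes, had 51.9 and 49.4 CPM under Dehydration, against 15 and 16 CPM under Mock (log2 fold change 1.71, SE 0.09, adjusted p = 2.85e-10) and CHE, a repressor of CCA1, had 4.6 and 6.71 CPM under Dehydration, against 23.9 and 26.7 CPM under Mock (log2 fold change -2.16, SE 0.15, adjusted p = 9.20e-09). The morning genes differed between the Mock replicates, since CCA1 had 11.9 and 12.8 CPM under Dehydration, against 5.48 and 0.77 CPM under Mock and LHY had 0.992 and 0.764 CPM under Dehydration, against 9.24 and 1.01 CPM under Mock. CCA1 was called as induced with a log2 fold change of 2.04, which was 4.00 without Mock replicate 1 and 1.17 without Mock replicate 2, and DESeq2 gave it an adjusted p of 0.0528. LHY was called as repressed at -2.53, but it stood at -0.21 and was not called without Mock replicate 1, nor was it called by DESeq2 or without either single Dehydration library. Among 13 genes often used as references, UBQ10 was called, with 3235 and 2988 CPM under Dehydration, against 1280 and 1352 CPM under Mock (log2 fold change 1.24, SE 0.10, adjusted p = 2.83e-08), and the median of the list was 0.09, or -0.09 with library size alone.

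In the class of genes averaging 20 CPM or more in Col-0, the 10 largest rises included 4 genes with little annotation and the 10 largest falls came mostly from the lists above. AT5G05220, an uncharacterized protein, had 136 and 172 CPM under Dehydration, against 0.835 and 1.14 CPM under Mock (log2 fold change 7.26, SE 0.17, adjusted p = 5.01e-14). TSPO, a membrane protein that binds porphyrins and is degraded by autophagy, had 727 and 682 CPM under Dehydration, against 12.3 and 4.17 CPM under Mock (log2 fold change 6.45, SE 0.31, adjusted p = 9.96e-11), and its log2 fold change was 7.4 without Mock replicate 1 and 5.84 without Mock replicate 2. PUB19, a U-box ubiquitin ligase of ABA signalling, had 340.1 and 394 CPM under Dehydration, against 7.1 and 5.57 CPM under Mock (log2 fold change 5.87, SE 0.13, adjusted p = 4.93e-14). AT4G33930, a cupredoxin family protein, had 38.5 and 48.7 CPM under Dehydration, against 0.261 and 0.405 CPM under Mock. AT2G36780, a UDP-glycosyltransferase, had 169 and 129.6 CPM under Dehydration, against 2.64 and 1.5 CPM under Mock. In all of these genes both Dehydration libraries were far above both Mock libraries. Of the falls outside the lists, AT1G26380, a berberine bridge enzyme-like protein, had 2.8 and 5.86 CPM under Dehydration, against 79.7 and 73.4 CPM under Mock (log2 fold change -4.13, SE 0.20, adjusted p = 1.07e-10, and -4.77 without Dehydration replicate 2) and AT1G31690, a copper amine oxidase, had 4.33 and 3.4 CPM under Dehydration, against 59.3 and 51.1 CPM under Mock (log2 fold change -3.84, SE 0.14, adjusted p = 3.59e-12). The fall of ICL was -5.64 with both Mock libraries and -2.15 without Mock replicate 1. The 10 largest losses in TPM were RBCS2B, GER3, FD2, PYK10, RBCS1B, TT4, AT2G10940, AT2G43550, AT2G45180 and CA1. GER3, a germin-like protein, had 604 and 518 CPM under Dehydration, against 1551 and 1924 CPM under Mock (log2 fold change -1.63, SE 0.12, adjusted p = 7.76e-09). PYK10, the beta-glucosidase of root ER bodies, had 1293 and 1171 CPM under Dehydration, against 2742 and 2738 CPM under Mock (log2 fold change -1.15, SE 0.12, adjusted p = 5.95e-07), and AT2G45180, a lipid transfer-like protein, had 33.8 and 32.7 CPM under Dehydration, against 352 and 399 CPM under Mock (log2 fold change -3.5, SE 0.10, adjusted p = 2.71e-13).

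Promoters of induced genes held the letters of ABA and DRE elements more often than promoters in general. Windows from 250 bases before to 50 after the annotated start were read from TAIR10.1 for 21613 of the genes tested and searched on both strands. The ABRE core ACGTG was in 44.0% of promoters of induced genes and in 27.8% of those of repressed genes, against 28.0% of all promoters. The G-box CACGTG, which contains the ABRE core, was in 19.2%, 5.36% and 8.80% of the same sets. A DRE core, ACCGAC or GCCGAC, was in 17.2% of induced, 6.47% of repressed and 9.65% of all promoters. In the dehydrin and LEA list 72.0% of 25 promoters held the ABRE core and 44.0% a DRE core. The site II letters TGGGCC and the telo-box AAACCCTA are found in promoters of ribosomal protein genes. They were in 61.5% and 50% of the promoters of the 26 ribosomal protein genes tested, which were picked by name pattern. The repressed promoters held them in 7.81% and 3.27% of cases, against 17.9% and 5.58% of all promoters. The I-box GATAAG was in 15.9% of induced and 15% of repressed promoters, against 14.7% of all, and the evening element AAAATATCT in 4.16%, 2.84% and 2.91%. A match is a description of letters and not of a bound site, and no test was made.

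**Figure D5:**
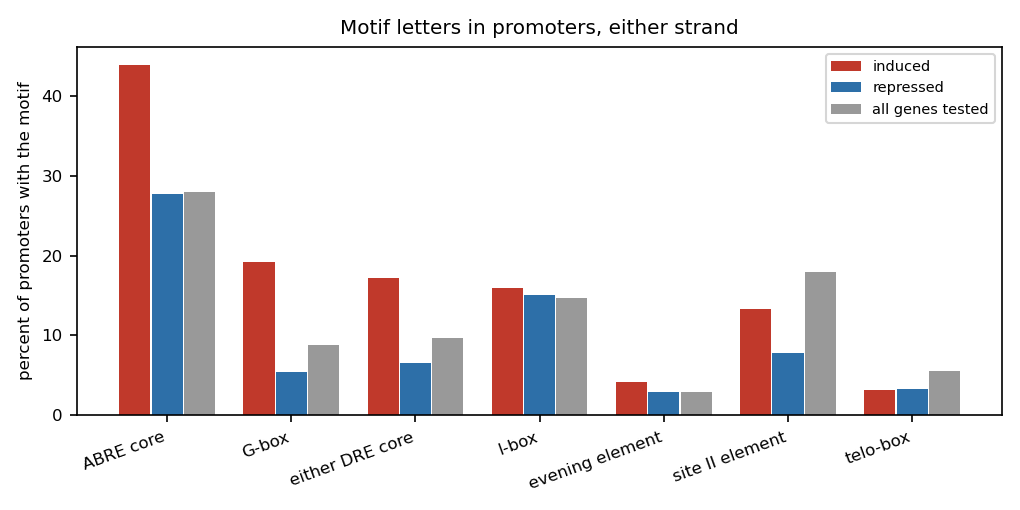
Percent of promoters that hold each motif on either strand (y axis, from 0) for induced genes in red, repressed genes in blue and all genes tested in grey. The ABRE core stands at 44.0% for induced genes, 27.8% for repressed genes and 28.0% for all genes tested.

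The response in Col-0 was set against that in enap1-1enap2 by the interaction term of the same fit, in which 3639 genes, 16.8% of those tested, had an adjusted p under 0.05. This term was fitted in the main setting alone, and no other scaling, test or left-out library was tried for it. Among the 2164 genes induced in Col-0 the response differed for 730, and among the 2535 repressed genes for 494. The clade A PP2C genes differed in 8 of 9 cases, with median log2 fold changes of 3.41 in Col-0 and 4.47 in enap1-1enap2, and the dehydrin and LEA genes in 19 of 25 cases, with medians of 2.84 in Col-0 and 3.74 in enap1-1enap2. Ribosome biogenesis genes differed in 19 of 20 cases, with medians of -0.21 in Col-0 and -0.89 in enap1-1enap2. Aliphatic glucosinolate genes differed in 12 of 20 cases, with medians of -1.98 in Col-0 and -2.54 in enap1-1enap2. None of the 11 gibberellin genes and 3 of the 34 mitotic genes differed, and a value that missed the threshold does not show that the genotypes responded alike.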

How the data were processed

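RNA-seq was made from whole seedlings of Col-0 and enap1-1enap2 under Dehydration and Mock, with 2 libraries per group. The authors trimmed reads with Trim Galore 0.6.7, aligned them to TAIR10 and deposited counts per Araport11 gene from featureCounts (Subread 2.0.1). The methods name bowtie2 as the aligner while the alignment names in the header are the default ones of STAR, so the aligner is not settled here. Per the file header, mates of a pair were counted singly, strand was ignored, and reads that fitted several places or genes were left out, which lowers near-identical copies and overlapping genes. Genes were placed on TAIR10.1, which has the same coordinates for 99.47% of the genes. No column of values was left without a sample (0 unmapped columns).

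The deposited counts were analysed with edgeR 4.0.16 in R 4.3.3, with filterByExpr by group, TMM factors and 4 group means over all 8 libraries, because 2 libraries a group leave few degrees of freedom. The study used DESeq2 with the same thresholds, and DESeq2 1.42.0 was run as an alternative. CPM were scaled by TMM, TPM came from counts and the annotated exon length, and SE was derived from the estimate and the F statistic. Steps were tested on simulated data. The alternatives were other scalings, filters, thresholds and tests, the replicate number as a block, the Col-0 libraries alone and each Col-0 library left out.

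Genes were compared in 45 lists and 9 marker lists, 1214 genes in all, of which 1115 were tested, and 67 listed names were unmatched. All lists and members were chosen with earlier results of these data known. Of each list the text names up to 3 called genes with the largest change in the main direction and 1 in the other, at a mean of at least 5 CPM and without overlap, genes with at least 20% of the list's counts, the 10 largest gains and losses in TPM, and the 10 largest rises and falls at a mean of at least 20 CPM. Not every gene this rule gives is described, and other list members were named for a known role after their values were seen.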

Additional observations from a re-analysis of the deposited data

Results flagged for a closer look

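The response to Dehydration of 51 of the 175 called genes named above differed between enap1-1enap2 and Col-0 by more than 1 on the log2 scale, with an adjusted p under 0.05 for the interaction term in edgeR. At any size of difference 81 of the 175 had such an adjusted p, against 16.8% of all genes tested. The share of all genes that differed by more than 1 was not computed. Named genes were largely picked for the size of their change in Col-0, so the counts describe these genes only. All values that follow are the log2 fold change in enap1-1enap2 minus that in Col-0. In 32 of the 51 genes the change was larger in the mutant and in 19 it was smaller or opposite.

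Among genes induced in Col-0, a larger rise in enap1-1enap2 was found for LEA7 (4.56), RD29B (4.45), AT3G02480 (3.79), CCA1 (3.63), RAB18 (2.51), AT5G05220 (2.49), LEA4-5 (2.42), TSPO (2.39), HAI3 (2.32) and WSD1 (2.15). Several of these rest on a Col-0 value that moves with Mock replicate 1, as given above for RD29B, LEA7, LEA4-5, HAI3, TSPO and CCA1. The Col-0 log2 fold change of AT3G02480 moved too, from 5.86 with both Mock libraries to 7.27 without Mock replicate 1. Smaller differences in the same direction were seen for PAP2 (1.81), HSP22.0 (1.75), NCED3 (1.56), SAG29 (1.47), CYP707A1 (1.36), KIN1 (1.21), HB12 (1.19), XERO2 (1.18), TPPF (1.12), COR15A (1.1), HB7 (1.07) and HAI2 (1.01).

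Among genes induced in Col-0, the rise was smaller or absent in enap1-1enap2 for DIN11 (-4.15), AT2G36780 (-3.19), AT4G33930 (-3.09), WRKY40 (-2.88), IRT1 (-2.41), HSP17.6II (-2.14), NRT1.8 (-1.93), JAZ10 (-1.75), EXPA10 (-1.48), NIA1 (-1.32), NIA2 (-1.29) and PIP2;3 (-1.25).

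Among genes repressed in Col-0, the fall was larger in enap1-1enap2 for AT5G64120 (-2.13), AMT1;3 (-1.90), CRK40 (-1.52), IPMI1 (-1.47), PYL4 (-1.41), AT2G10940 (-1.27), AT2G45180 (-1.24), XTH31 (-1.21) and MYB29 (-1.19). EXPA18 gave -7.64, a fitted value that depends on the prior count because the gene is at 0 in the mutant's Dehydration libraries.

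The fall was smaller or absent in the mutant for NHL10 (2.5), CYP71A12 (2.16), PER4 (1.69), FAR4 (1.41) and CBP60G (1.00). AT5G44440 (10.49) was high in Col-0 Mock replicate 1 alone, so that its difference rests on that library. ICL (6.01) was by far highest in the same library, so the size of its difference moves with it. In Mock replicate 2 ICL was also above both Col-0 Dehydration libraries.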

How the results depend on the processing

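The counts of 2164 induced and 2535 repressed genes became 2177 and 2520 with RLE scaling, 1668 and 3329 with upper quartile scaling, 1659 and 3286 with library size alone, 2155 and 2471 with DESeq2, and 2127 and 2496 with the 4 Col-0 libraries alone. The induced share of calls, 46.1%, was 33.4% with upper quartile scaling and 33.5% with library size alone, and these scalings moved the median of all genes tested to -0.22 and -0.21. The counts were 2130 and 2716 with no count filter and 2048 and 2405 with the CPM filter. Thresholds moved them most, to 6419 and 6480 with no fold threshold, 1232 and 1546 at a log2 threshold of 1.5, and 1431 and 1460 with glmTreat. Without 1 Col-0 library the counts ranged from 2028 to 2192 induced and from 2311 to 2497 repressed, where the lone library of a group is assumed to vary like the other groups. No called gene was called in the other direction under any of these settings.

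The replicate numbers are shared by the groups, and the labels do not say whether same-numbered libraries belong together. The deviations of same-numbered Col-0 libraries had a correlation of -0.063. With 2 libraries a group this single value cannot decide whether they are paired. With the replicate block 2142 genes were induced and 2467 repressed.

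Over the fits that left out 1 Col-0 library, the log2 fold change of AT1G12080 ranged from -1.77 to 0.08, of MLS from -4.55 to 0.13, of CASP5 from -9.58 to 3.64, of AT5G44440 from -12.92 to 1.05 and of PORA from -5.31 to 1.26, in each with the highest value, not called, without Mock replicate 1. Of genes that were not called, LHCB1.3 ranged up to 0.08, LOX2 from -0.24 to 0.36 and HSC70-1 from -0.02 to 0.14. Upper quartile scaling gave -0.04 for HIRD11, -0.09 for LOX2 and -0.12 for HSC70-1, and library size alone gave -0.03, -0.09 and -0.12. The cause was not tested. Genes near the floor of 3 counts, such as many SAUR genes, are limited by depth.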
